A study of Drosophila melanogaster with 4 samples.

Results

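A set of 30 genes of the cell division cycle and of DNA replication was followed in the adult Drosophila melanogaster intestine. They are the genes stg, CycA, CycB, CycB3, CycE, CycD, Cdk1, Cdk2, PCNA, Mcm2, Mcm3, Mcm5, Mcm6, Mcm7, dup, geminin, polo, aurA, aurB, fzy, BubR1, Klp61F, RnrS, RnrL, Orc1, Orc2, E2f1, pav, tum and Incenp, taken by name and not by any measured value. All 30 names matched a FlyBase identifier among the 17510 genes of the count table, and 27 had enough reads to be tested. The intestines came from flies whose genotype is labelled as an RNAi knockdown of CG5789 (2 libraries, RNAi 1 and RNAi 2), a transgenic line of the National Institute of Genetics, and from flies labelled wild type (2 libraries, wild type 1 and wild type 2). CG5789, now named Cftr, is the fly gene for a chloride channel related to human CFTR. The sources used here give no age, sex, RNAi driver or shared allele, and no library is labelled as a control for either, so the knockdown, the transgene and the strain cannot be told apart. Library numbers within a genotype follow the order of deposit, and the labels say nothing of a shared origin of libraries with the same number.

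Dividing cells pass through a phase of DNA synthesis and then through mitosis, and each step has its own regulators. Cyclins with their kinases open S phase and mitosis, the origin recognition complex and the Mcm helicase license and unwind replication origins, and a ubiquitin ligase, the anaphase-promoting complex, ends mitosis. In the fly midgut, intestinal stem cells are the main cells that divide. Enterocytes instead enlarge by endocycles, in which DNA synthesis recurs without mitosis, so that mRNAs of S phase and of mitosis need not come from the same cells.

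Library totals ranged from 11294882 counts (wild type 2) to 30537063 (wild type 1). The targeted gene did not separate the genotypes: Cftr had 13.8 and 17.5 CPM (counts relative to library size, with library sizes scaled by TMM factors) in RNAi 1 and RNAi 2, against 13.8 and 43.4 CPM in wild type 1 and 2. Its level in RNAi 1 was thus that of wild type 1, and each direction given here is one between libraries as labelled. More genes separated RNAi 1 and wild type 1 from RNAi 2 and wild type 2 than separated the genotypes (2986 and 3057 genes in the 2 directions, against 1161 and 1171). These pairs are therefore also described, as the first and the second pair, although the labels do not name them. Whether the libraries of a genotype are separate collections of flies is not stated, and the p-values speak only for the spread among these 4 libraries, part of which may be technical.

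Most of the genes were expressed at a low level in every library. Their median level was 0.501 CPM per kilobase of annotated exon (mean of the 4 libraries), against 6.36 CPM per kilobase over 9585 tested genes with a known length, and 27 of the 30 lay below that median. RnrS and geminin were the highest at 12.7 and 12.0 CPM per kilobase. E2f1, CycD and PCNA followed at 6.43, 5.80 and 4.89 CPM per kilobase. At the other end stood mostly mitotic regulators, with pav at 0.0906, Klp61F at 0.138, stg at 0.142 and CycB at 0.152 CPM per kilobase, and with them Mcm7, a helicase subunit, at 0.127. The Mcm7 level is uncertain, since an antisense RNA gene covers 81.7% of its exon bases and the strand setting of the counting is not given. In bulk intestine, fewer cells that express a gene and less RNA per cell cannot be told apart.

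**Figure D1:**
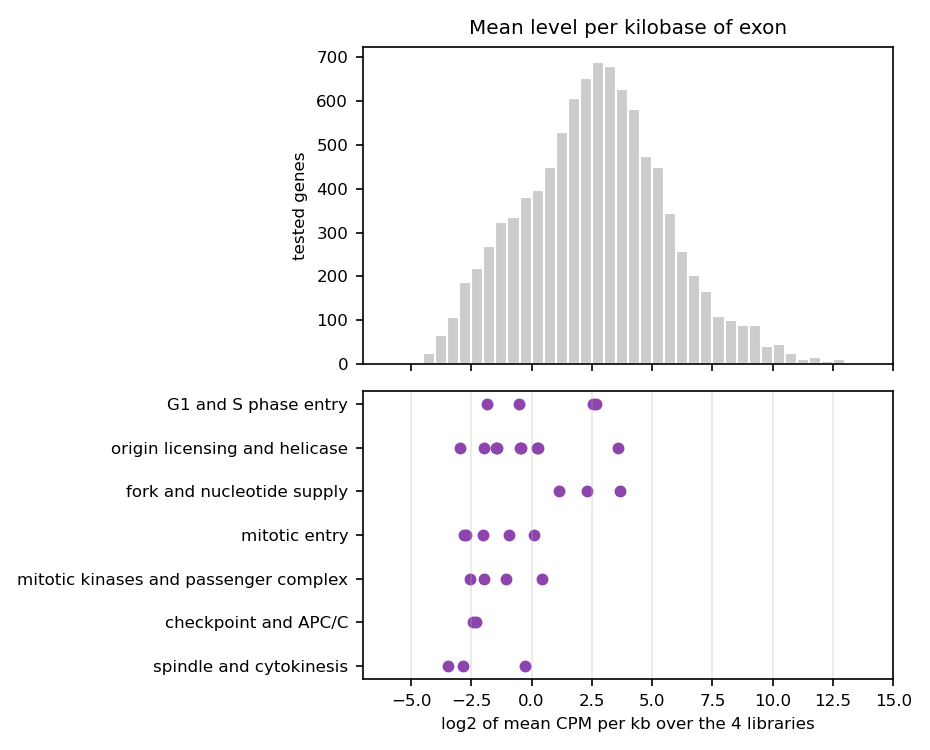
Mean level of each listed gene over the 4 libraries, as log2 of CPM per kilobase of exon (lower panel, points, 1 row per functional group), under the distribution of the same quantity over 9585 tested genes (upper panel, bars are gene counts). Of the 30 points, 27 lie below the median of the tested genes, 6.36 CPM per kilobase, and the checkpoint and APC/C genes fzy and BubR1 lie at 0.204 and 0.188.

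No gene of the 30 passed the test between the RNAi-labelled and the wild-type libraries. In edgeR's quasi-likelihood test with genotype as the only term, 0 of the 27 tested genes passed an adjusted p of 0.05, where 0.125% of all 9637 tested genes did, and the adjusted p rounded to 1.0 for each of the 27. Before adjustment 1 gene of the 27, Mcm5, lay under 0.05, against 3.83% of all genes. The median log2 fold change, RNAi over wild type, was 0.16, with 17 genes above 0 and 10 below, and over all tested genes the median was 0.0065. DESeq2 also called 0 of the 27, against 92 of all 9637 tested genes. Before adjustment 0 of the 27 lay under 0.05 in DESeq2, against 371 of all genes. With the library pair as a further term, chosen because earlier results of these data had shown the pairs, 0 of 27 passed where 7.1% of all genes did, and 3 genes (Mcm5, PCNA and tum) reached an unadjusted p under 0.05, against 17.7% of all genes. The pairs were read from the same counts and that fit has 1 residual degree of freedom, so its p-values can be too small. These tests do not show equal expression: the 95% interval of the log2 fold change reached a 2-fold change in at least 1 direction for 25 of the 27 genes, and stayed inside it for CycD and E2f1.

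**Figure D2:**
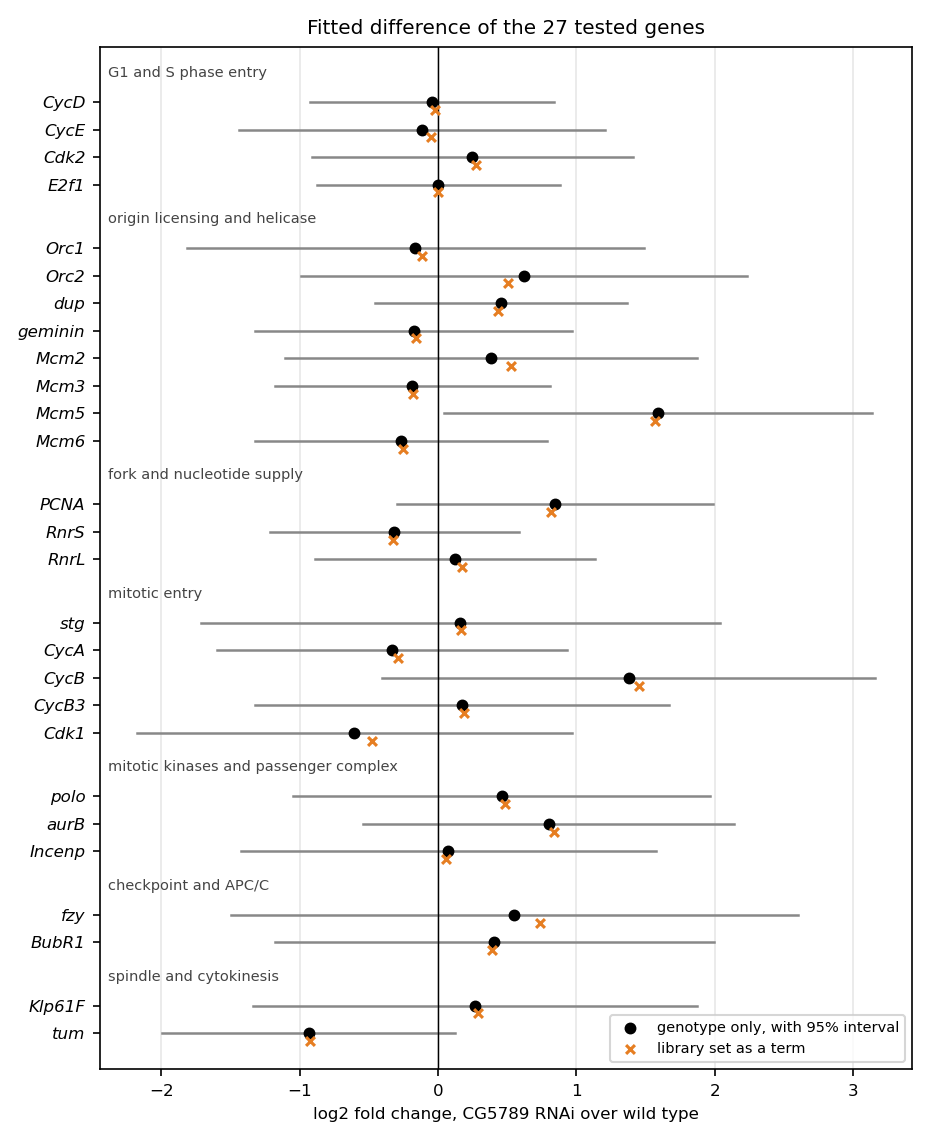
Log2 fold change, CG5789 RNAi over wild type, of the 27 tested genes by functional group, from edgeR with genotype only (black points, bars are 95% intervals) and with the library pair as a term (orange crosses). Mcm5 is the single gene whose interval lies to 1 side of 0 (0.044 to 3.14), and its adjusted p was 1.0.

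The regulators that commit a cell to S phase had overlapping levels in the genotypes. E2f1, the activator transcription factor that switches on replication genes, had 45.2 and 37.8 CPM in RNAi intestines, against 41.3 and 41.6 CPM in wild type. The RNAi values lay on either side of the wild-type values, and the log2 fold change was 0.0035 (SE 0.37, 95% interval -0.87 to 0.88). CycD, the partner of Cdk4 in growth control, had 13.5 and 14.5 CPM in RNAi intestines and 12.2 and 16.7 CPM in wild type, again overlapping, with a log2 fold change of -0.043 (SE 0.38). CycE, the cyclin that triggers S phase, was lower than CycD in all 4 libraries, with 1.44 and 1.22 CPM in RNAi intestines and 1.003 and 1.97 CPM in wild type. Per kilobase of exon CycD stood at 17.4 to 25.0 times CycE. Cdk2, the kinase partner of CycE, had 1.96 and 1.59 CPM in RNAi intestines and 1.76 and 1.17 CPM in wild type. An antisense-strand neighbour, CG17267, covers 43.9% of the Cdk2 exon bases, and since the strand setting of the counting is not given, reads there cannot be assigned to either gene.

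Among the 8 tested licensing and helicase genes of the 30, Mcm5 had the largest fitted difference. Mcm5, a subunit of the hexameric replicative helicase, had 36 and 40 counts in the RNAi libraries (1.15 and 1.63 CPM), against 17 and 3 counts in wild type (0.588 and 0.269 CPM). Both RNAi libraries lay above both wild-type libraries. The log2 fold change was 1.59 (SE 0.66, edgeR adjusted p = 1.0), and 1.57 with the library pair as a term (adjusted p = 0.212). The ratio of summed scaled counts was 2.73 (95% exact interval 1.65 to 4.72, counting error only). In the BDGP6 assembly Mcm5 occupies 10788524 to 10791150 on arm 3R, plus strand, and shares no exon base with another annotated gene. Without wild type 2, where it had 3 counts, the log2 fold change was 1.25, and without wild type 1 it was 2.33.

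The other helicase subunits did not share that pattern. Mcm2 had 1.96 and 2.69 CPM in RNAi intestines and 0.865 and 2.87 CPM in wild type, so that wild type 1 alone was low, and the log2 fold change of 0.38 became -0.32 without that library. Mcm3 had 3.59 and 2.32 CPM in RNAi intestines, against 3.25 and 3.50 CPM in wild type. Mcm6 had 2.08 and 1.67 CPM in RNAi intestines, against 1.97 and 2.60 CPM in wild type. Their groups overlapped, with log2 fold changes of -0.18 (SE 0.42) for Mcm3 and -0.27 (SE 0.45) for Mcm6. Mcm7 was below the count filter with 18 and 6 counts in RNAi intestines and 2 and 4 in wild type, and 81.7% of its exon bases lie under the antisense RNA gene CR45871. Reads there cannot be assigned to either gene. The ratio of summed scaled counts was 1.60 for Mcm2 (exact interval 1.16 to 2.23) and 2.87 for Mcm7 (1.14 to 8.60). It was 0.913 for Mcm3 (0.723 to 1.15) and 0.886 for Mcm6 (0.660 to 1.19). These intervals cover counting error only.

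The sixth subunit, Mcm4, is encoded by dpa, which belongs to the wider list of cell cycle genes described further on. dpa had 3.97 and 4.97 CPM in RNAi intestines, against 10.8 and 7.81 CPM in wild type, so that both RNAi libraries lay below both wild-type libraries. Its log2 fold change was -1.06 (SE 0.39, edgeR adjusted p = 1.0). With the library pair as a term it fell by 1.07 on the log2 scale and passed (SE 0.25, adjusted p = 0.00312), but not by DESeq2 with the same term (adjusted p = 0.100). Within the pairs dpa stood in RNAi at 0.367 times its wild-type level (exact interval 0.296 to 0.453) in the first and at 0.637 times (0.480 to 0.849) in the second, with intervals that cover counting error only.

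The loading factors showed smaller differences. dup, the fly Cdt1, which brings the Mcm complex to origins, had 3.97 and 4.89 CPM in RNAi intestines, against 3.39 and 3.05 CPM in wild type, without overlap (log2 fold change 0.45, SE 0.39, adjusted p = 1.0 by edgeR). geminin, the inhibitor of dup, had 15.5 and 8.56 CPM in RNAi intestines and 17.8 and 9.24 CPM in wild type. The higher value in each genotype was that of the first pair, and the log2 fold change was -0.18 (SE 0.49). Per kilobase of exon, geminin stood above dup in every library, at 11.5 and 5.18 times its level in RNAi 1 and 2, and at 15.5 and 8.96 times in wild type 1 and 2. Orc1 and Orc2, subunits of the origin recognition complex, had 7 to 29 counts per library. Their log2 fold changes were -0.16 (SE 0.70) for Orc1 and 0.62 (SE 0.69) for Orc2.

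PCNA was high in a single RNAi library. PCNA, the sliding clamp that holds the DNA polymerase on its template, had 290 and 101 counts in RNAi 1 and 2 (9.29 and 4.12 CPM), against 98 and 46 counts in wild type (3.39 and 4.13 CPM). RNAi 1 stood apart from the other libraries, whereas RNAi 2 and wild type 2 had the same level, with a ratio of 0.997 (exact interval 0.697 to 1.45). In the first pair the ratio was 2.74 (2.17 to 3.48), and both intervals cover counting error only. The log2 fold change over all libraries was 0.84 (SE 0.49, edgeR adjusted p = 1.0), and without RNAi 1 it was 0.14. PCNA occupies, on arm 2R, 20261754 to 20262883, minus strand, and shares no exon base with other annotated genes.

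Ribonucleotide reductase, which makes the deoxynucleotides for DNA synthesis, has a small subunit encoded by RnrS and a large subunit encoded by RnrL. RnrS had 20.6 and 15.4 CPM in RNAi intestines, against 23.3 and 21.5 CPM in wild type, and the groups did not overlap (log2 fold change -0.32, SE 0.38, edgeR adjusted p = 1.0). RnrL had 5.32 and 6.36 CPM in the RNAi libraries, between the wild-type values of 3.84 and 7.001 CPM. The small subunit exceeded the large one per kilobase of exon, by 6.28 and 3.91 times in RNAi 1 and 2 and by 9.81 and 4.98 times in wild type 1 and 2.

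**Figure D3:**
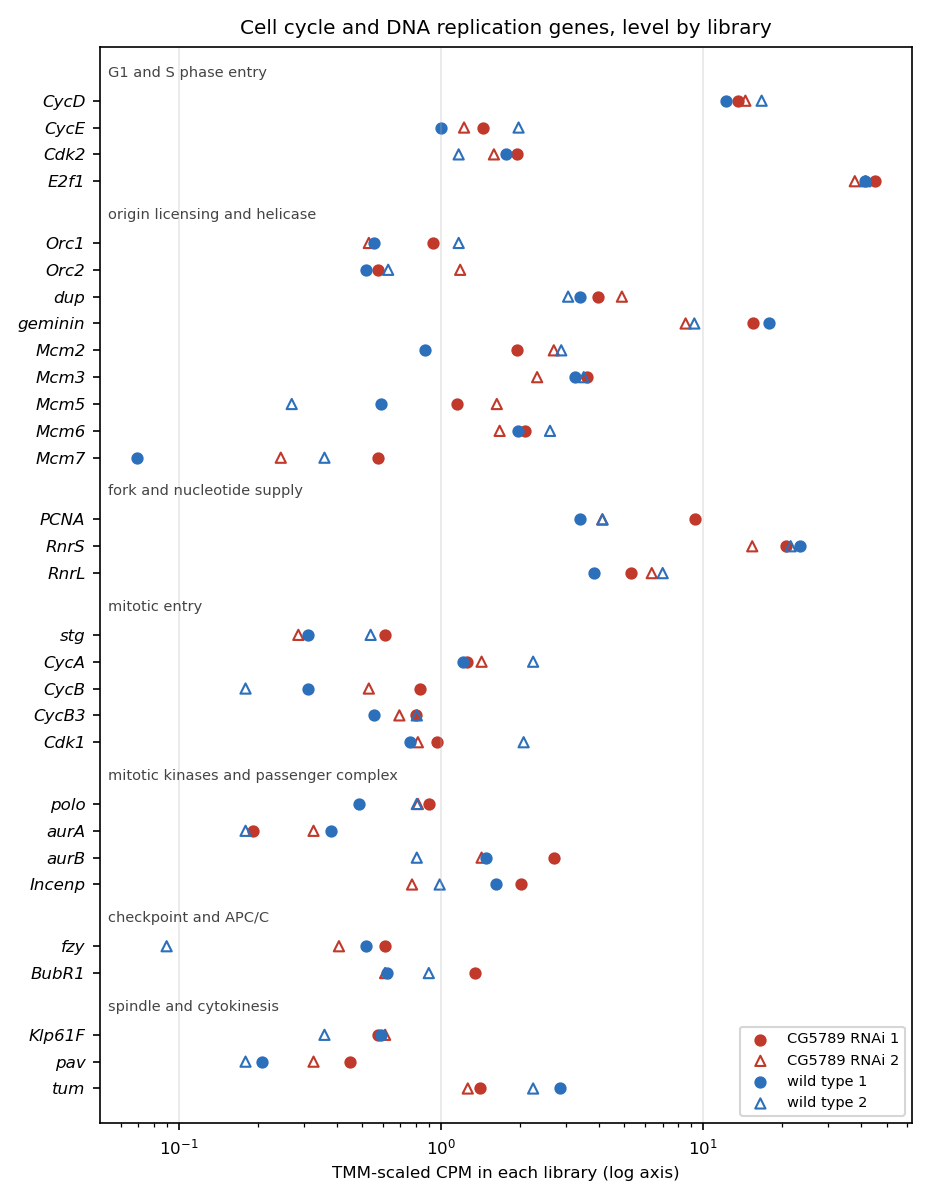
Level of each of the 30 genes in each library, in TMM-scaled CPM on a log axis, by functional group (red, CG5789 RNAi, and blue, wild type; filled circles, library 1, and open triangles, library 2). PCNA is high in RNAi 1 alone (9.29 CPM), and tum is lower in both RNAi libraries (1.41 and 1.26 CPM) than in wild type (2.84 and 2.24 CPM).

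Mitotic entry genes had low counts throughout. stg, the Cdc25 phosphatase that sets off mitosis by activating Cdk1, had 19 and 7 counts in RNAi intestines, against 9 and 6 in wild type. CycB, a mitotic cyclin, had 26 and 13 counts in the RNAi libraries (0.833 and 0.530 CPM), against 9 and 2 counts in wild type (0.311 and 0.180 CPM), without overlap. Its log2 fold change of 1.38 had an SE of 0.76 and an edgeR adjusted p of 1.0, and the ratio of summed scaled counts was 2.55 (exact interval 1.28 to 5.52, counting error only). CycA, the other main mitotic cyclin of the fly, had 1.25 and 1.43 CPM in RNAi intestines, against 1.21 and 2.24 CPM in wild type. CycB3, another cyclin of mitosis, had 0.801 and 0.693 CPM in RNAi intestines and 0.554 and 0.808 CPM in wild type. Cdk1, the kinase that these cyclins activate, had 0.961 and 0.815 CPM in RNAi intestines, against 0.761 and 2.06 CPM in wild type. Wild type 2 was thus the highest library for CycA and Cdk1 and the lowest for CycB, and without it the log2 fold changes of CycA and Cdk1 were 0.16 and 0.23, against -0.33 and -0.60 with it.

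The mitotic kinases and the chromosomal passenger complex, which corrects the attachment of chromosomes to the spindle, likewise had no call. aurB, the kinase of that complex, had 2.69 and 1.43 CPM in RNAi intestines, against 1.49 and 0.808 CPM in wild type. Each RNAi library was above its partner in the pair, by 1.81-fold (exact interval 1.24 to 2.68) and 1.77-fold (0.832 to 4.18), where the intervals cover counting error only, and the genotypes overlapped (log2 fold change 0.80, SE 0.57). Incenp, which anchors aurB, had 2.02 and 0.775 CPM in RNAi intestines and 1.63 and 0.987 CPM in wild type. For both genes the libraries of the first pair were the higher ones. polo, the Polo-like kinase, had 0.897 and 0.815 CPM in RNAi intestines, against 0.484 and 0.808 CPM in wild type, a separation of less than 0.01 CPM between RNAi 2 and wild type 2. aurA, the centrosome kinase, fell below the filter with 6 and 8 counts in RNAi intestines and 11 and 2 in wild type.

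Genes of mitotic exit and of the spindle closed the list. fzy, the Cdc20 activator of the anaphase-promoting complex in mitosis, had 19 and 10 counts in RNAi intestines, against 15 and 1 in wild type. BubR1, which restrains fzy until chromosomes are attached, had 42 and 15 counts in RNAi intestines and 18 and 10 in wild type. fzr, the Cdh1-type activator that takes over from fzy at mitotic exit and in endocycles, was far more abundant: it had 11.4 and 14.1 CPM per kilobase in RNAi intestines, against 14.2 and 16.8 in wild type (adjusted p = 1.0 by edgeR). fzy stood at 0.305 and 0.204 CPM per kilobase in RNAi intestines, against 0.260 and 0.0450 in wild type. The fzr level per length was 37.3 and 69.0 times that of fzy in RNAi 1 and 2 and 54.4 times in wild type 1, and no ratio is given for wild type 2, with its single fzy count.

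tum had the largest negative change of the list. tum encodes the RacGAP of centralspindlin, the complex that positions the cleavage furrow in cytokinesis. It had 44 and 31 counts in the RNAi libraries (1.41 and 1.26 CPM), against 82 and 25 counts in wild type (2.84 and 2.24 CPM), without overlap. The ratios within the pairs were 0.497 (exact interval 0.337 to 0.726) and 0.563 (0.322 to 0.995), and these intervals hold counting error alone. The log2 fold change was -0.93 (SE 0.45, edgeR adjusted p = 1.0) or, with the library pair as a term, -0.93 (adjusted p = 0.238). The gene occupies 13856150 to 13858689 on arm 2R, minus strand. pav, the kinesin that joins tum in centralspindlin, was below the filter with 14 and 8 counts in RNAi intestines, against 6 and 2 in wild type. Its order was the opposite of that of tum, also without overlap (0.449 and 0.326 CPM in RNAi, 0.208 and 0.180 CPM in wild type). The ratio of summed scaled counts was 1.98 (exact interval 0.847 to 5.13, counting error only). Klp61F, the kinesin that pushes spindle poles apart, had 18 and 15 counts in RNAi intestines and 17 and 4 in wild type, and 11.0% of its exon bases overlap galene.

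The genotypes did not overlap for 6 of the 27 tested genes. Both RNAi libraries were above both wild-type libraries for 4 (dup, Mcm5, CycB and polo), where 12% of all tested genes were so ordered, and below for 2 (RnrS and tum), where 12.2% were. Of the 27, 5 genes were higher in RNAi 1 and wild type 1 than in RNAi 2 and wild type 2 (Cdk2, geminin, aurB, Incenp and fzy), where 31% of all genes were. The opposite order held for 5 (CycD, Orc2, Mcm2, RnrL and CycA), where 31.7% of all genes had it. Either order was thus less frequent among the 27, at 37.0%, than among all tested genes, at 62.7%. Within the pairs, RNAi exceeded wild type in both for 8 genes and was below it in both for 3, while 16 genes went opposite ways. Over all 9637 tested genes these counts were 2935, 2981 and 3721. The 8 were thus near the share of all genes, the 3 were below it and the 16 were above it. The cause was not tested.

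**Figure D4:**
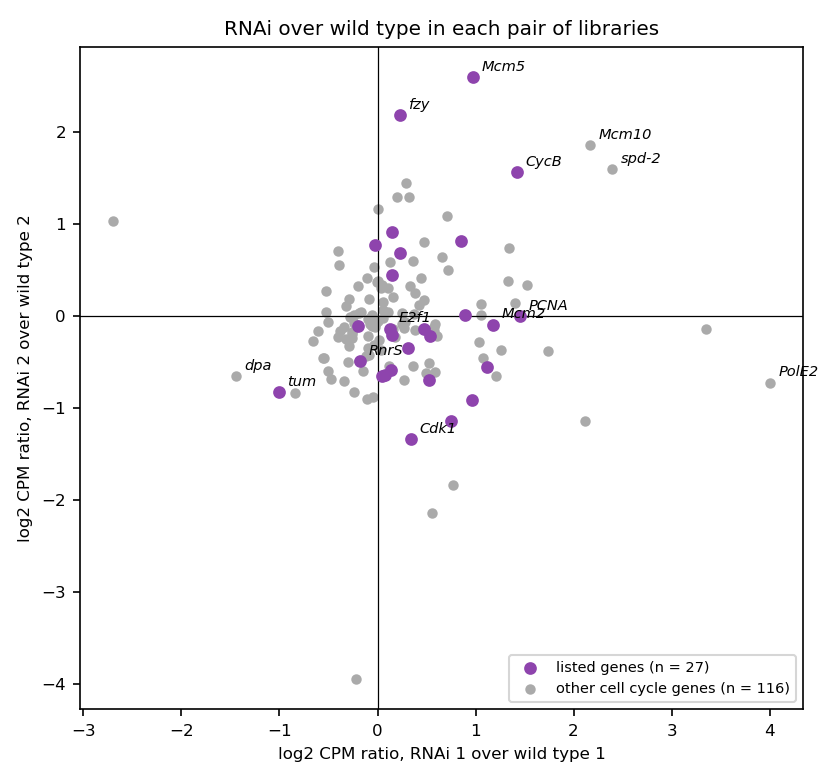
Log2 ratio of CPM, RNAi over wild type, in the first pair of libraries (horizontal axis) and in the second (vertical axis), for the 27 tested genes (purple) and 116 other tested cell cycle genes (grey, with 1 gene at 0 counts in a library left out). Mcm5 and CycB lie in the upper right and tum and dpa in the lower left, whereas PCNA lies on the horizontal axis.

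A wider list of 126 other cell cycle and replication genes gave a comparable picture. Of these names 124 were in the table and 117 were tested. In the genotype-only edgeR test 0 passed, and in the fit with the library pair 1 passed, dpa, which was lower. At an unadjusted p under 0.05 there were 3 genes in the first fit (dpa, Mcm10 and spd-2) and 10 in the other, or 2.56% and 8.55% of the 117. Both shares were below those over all tested genes, 3.83% and 17.7%, and the calls likewise, against 0.125% and 7.1% of all genes. The median log2 fold change was 0.048, with 60 genes above 0 and 57 below.

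Mcm10, a factor that helps to start the helicase, had 34 and 16 counts in RNAi intestines, against 7 and 2 in wild type, without overlap. Its log2 fold change was 1.97 (SE 0.75, edgeR adjusted p = 1.0). spd-2, which builds the centrosome, had 34 and 20 counts in RNAi intestines, against 6 and 3 in wild type, with a log2 fold change of 2.03 (SE 0.72, edgeR adjusted p = 0.950). Both were named after their values were seen, and both fail the correction for multiple tests.

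By step of the cycle, the other genes had medians on both sides of 0. The median log2 fold change was -0.10 for the 10 tested G1 and S phase regulators, with 2 above 0 and 8 below, and -0.088 for the 13 genes of origin licensing and the helicase, with 6 above and 7 below. It was -0.0076 for the 19 of the replication fork and nucleotide supply, with 9 above and 10 below, and -0.064 for the 12 mitotic entry regulators, with 5 above and 7 below. The 10 centromere and kinetochore genes had a median of -0.037, with 4 above and 6 below, and the 13 of cohesin and condensin -0.027, with 6 above and 7 below. The 17 of the checkpoint, the anaphase-promoting complex and separase had a median of 0.079, with 11 above and 6 below. The 15 of the passenger complex, spindle and cytokinesis had a median of 0.31, with 12 above and 3 below, and the 8 centriole genes 0.35, with 5 above and 3 below. Apart from dpa, no gene of these groups passed in either fit.

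Markers of other cells were read beside these genes. Each adjusted p given for them is from edgeR with the library pair as a term, and such p-values can be too small, as said above. With genotype alone none of those named passed in edgeR. Its adjusted p was then 0.302 for NimC1, 0.626 for Npc1b and 0.999 or more for the others with a p given. No DESeq2 result is given for these markers. The summed level of 4 matched stem cell and enteroblast genes was 24.6 and 26.95 CPM in RNAi intestines, against 17.0 and 18.9 CPM in wild type. Dl and esg, of the same list, could not be matched to an identifier, and the sum is without them. Most of it came from klu and from Sox21a, a Sox-family factor of stem cell progeny (9.61 and 13.8 CPM in RNAi, 4.57 and 8.44 CPM in wild type, adjusted p = 0.00477). spdo, of the same list, had the other order, with 1.99 and 1.18 CPM in RNAi and 2.08 and 2.15 CPM in wild type, and sna had at most 7 counts in a library. The 6 haemocyte genes summed to 7.21 and 6.81 CPM in RNAi intestines, against 1.87 and 2.69 CPM in wild type, led by the phagocytosis receptor gene NimC1 (adjusted p = 6.3e-05), while He was at 0 in every library.

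The 11 matched female germline genes summed to 15.7 and 13.2 CPM in RNAi intestines and 11.2 and 11.6 CPM in wild type. The defining markers vas and bam had at most 3 counts in any library, whereas otu had 42 and 18 counts in RNAi, against 0 and 3 in wild type (adjusted p = 0.0475). osk, below the count filter, had 33 and 8 counts in RNAi and 5 and 4 in wild type. orb had 61 and 13 counts in RNAi and 22 and 7 in wild type. Both were highest in RNAi 1, as were otu, aub, ovo and spn-E of the same list. exu and swa were lowest there, swa with 4 counts. exu, with the highest level of the list, had 7.92 and 8.77 CPM in RNAi and 8.06 and 8.17 CPM in wild type. Of the 30 cell cycle genes, 13 were likewise highest in RNAi 1 and 0 were lowest there. RNAi 2, wild type 1 and wild type 2 were highest for 4, 4 and 9 of them. Visceral muscle genes summed to 694 and 1231 CPM in RNAi intestines and 954 and 1754 CPM in wild type, lower in RNAi within each pair and higher in the second pair within each genotype. Of the 8 muscle genes, up and sls passed (adjusted p = 0.00422 and 0.0494), both lower in RNAi. The enteroendocrine sum was 271 and 277 CPM in RNAi intestines and 283 and 263 CPM in wild type, with members that moved in opposite directions. NPF was lower, at 22.4 and 15.7 CPM in RNAi and 43.0 and 30.1 CPM in wild type (adjusted p = 0.000141), while CCHa2 and AstA were higher in RNAi (adjusted p = 0.00768 and 0.0174). The enterocyte sum, with genes of digestive enzymes and the brush border, lay between 14499 and 18663 CPM, most of it from betaTry and Amy-p. Npc1b, of the same list, was higher in RNAi, at 283 and 514 CPM, against 90.9 and 145 CPM in wild type (adjusted p = 8.7e-09). No other tested gene of that list passed. The part of these cells in the values of Mcm5, CycB, PCNA, tum or dpa was not tested.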

How the data were processed

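Adult intestines, cleared of crop and Malpighian tubules, gave 4 RNA-seq libraries. The deposited values are raw read counts per gene, which per the submitters' processing notes come from FastQC, STAR and the BDGP6 assembly. For the counting tool, its strand setting and all versions, nothing is given in the sources used here. Symbols were matched to 17405 of 17510 identifiers, and exon lengths and positions came from Ensembl release 115 (BDGP6). In edgeR 4.0.16 (R 4.3.3), filterByExpr (minimum count 10) kept 9637 genes, libraries were scaled by TMM, and a robust quasi-likelihood test compared genotypes over 4 libraries, with Benjamini-Hochberg adjustment over all 9637 genes. DESeq2 1.42.0, other scalings, no filter, each library left out and a library-pair term were alternatives. Where a genotype kept 1 library, it was assumed to vary like the others. Code was tested on simulated data. Exact binomial intervals are at 95%. All 30 genes were named. From the other lists, some genes were named as called or with the smallest p, and others to describe their list or complex, with 3 counts as the floor. Marker lists of fat body, Malpighian tubule, follicle cell and testis were also read and are not described. In them Irk3 (lower in RNAi) and Yp1 (higher) passed in edgeR with the library pair (adjusted p = 0.0115 and 0.0436). The genes, lists and library pairs were chosen with earlier results of these data known. Promoter motifs were not analysed here.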

Additional observations from a re-analysis of the deposited data

How the results depend on the processing

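Of the 11 alternatives, those that kept all 4 libraries called 0 of the listed genes that they tested. These were all 30 without a count filter and 27 otherwise. Of the other cell cycle genes 1, dpa, passed in edgeR with the library pair as a term and 0 under the rest of these. Over all tested genes the calls in these fits ranged from 1 (upper-quartile factors) to 684 (edgeR with the library pair). In most of them few calls among 30 genes would be made at the share of all genes. The median log2 fold change of the listed genes that were tested (27 to 30) ranged from 0.0059 to 0.40 when a library was left out. Library size alone or leaving out wild type 2 moved the median of all tested genes to 0.11. Of 297 recomputed log2 fold changes 272 kept their direction, and 11 genes kept it throughout. Those of CycD with library size alone (0.051) and E2f1 without a count filter (-0.021) turned round. Leaving out each library in turn, the log2 fold change ranged from -0.26 to 0.83 for BubR1, -1.23 to 0.23 for Cdk1, -0.76 to 0.16 for CycA, -0.13 to 0.44 for CycB3, -0.27 to 0.21 for CycD, -0.59 to 0.42 for CycE, -0.13 to 0.084 for E2f1, -0.79 to 0.54 for Incenp, -0.32 to 1.44 for Mcm2, -0.53 to 0.050 for Mcm3, -0.69 to 0.40 for Orc1, -0.0033 to 1.07 for Orc2, -0.28 to 0.62 for RnrL, -0.021 to 2.41 for fzy, -0.67 to 0.35 for geminin and -0.47 to 0.57 for stg. The cause was not tested. Depth limits the mitotic genes most: in wild type 2, 12 of the 30 genes had under 10 counts and 5 had 3 or fewer, a level of 0.269 CPM.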

Other observations

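Among the other cell cycle genes, several complexes followed the pairs of libraries and not the genotypes, a pattern noticed in the data and not tested. All 4 subunits of GINS, the complex that joins the Mcm helicase at the fork, were higher in RNAi 1 and wild type 1 than in RNAi 2 and wild type 2. Psf2 had 14.0 and 5.18 CPM in RNAi 1 and 2 and 10.4 and 4.76 CPM in wild type 1 and 2, and Psf1 had 6.86 and 2.04 CPM in RNAi 1 and 2 and 5.33 and 2.96 CPM in wild type 1 and 2. Of 10 tested centromere and kinetochore genes 7 had that order, against 31% of all tested genes. Of 13 cohesin and condensin genes, which hold sister chromatids together and compact them, 9 had the opposite order, against 31.7% of all tested genes, among them SA1 with 7.40 and 19.7 CPM in RNAi 1 and 2 and 5.43 and 14.7 CPM in wild type 1 and 2. The 19 genes of the fork and nucleotide supply had 6 in the first order and 2 in the opposite one, and over all 117 other cell cycle genes 60.7% had either order, against 62.7% of all tested genes.

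Exon length moved with the same order. The 32 other cell cycle genes that were higher in the first pair had a median exon length of 1382.5 bases, and the 39 that were higher in the second pair had 3634 bases. Over all tested genes these medians were 1234 and 3324 bases, for 2986 and 3057 genes. The part of length in the levels of single genes was not tested.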
